A study of Mus musculus with 6 samples.

Results

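Transforming growth factor beta (TGF-beta) signalling was examined through 9 genes in podocytes, the epithelial cells that form the filtration slits of the kidney glomerulus: the ligands Tgfb1, Tgfb2 and Tgfb3, the receptors Tgfbr1, Tgfbr2 and Tgfbr3, the signal transducer Smad3, its inhibitor Smad7, and the target gene Tgfbi. The genes were chosen by symbol, through the Ensembl 67 identifier of each exonic part, that is, each exon stretch between neighbouring annotated edges. They were 9 of 36889 genes and held 131 of 368092 exonic parts. All 9 genes passed the filter on low counts, and 0 of their parts overlapped a part of another gene.

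The libraries were 3 labelled CD2BP2 knockout (KO) and 3 labelled wild type (WT), all of polyadenylated RNA from cells labelled podocytes on the C57BL/6 background. CD2BP2 is a spliceosomal protein bound to the U5 particle, and the series is titled for splicing and podocyte integrity. The growth text describes a floxed allele with 1 loxP site downstream of exon 3. The treatment text describes poly(I:C)-treated floxed MxCre mice aged 6 to 10 weeks, with littermate controls, as a source of bone marrow macrophages and not of podocytes. No Cre driver or age is stated for the podocytes, so the cells in which the allele was deleted are not given. The labels do not say that the libraries came from separate animals, and the p-values therefore reflect only sample-to-sample spread, possibly technical in origin.

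TGF-beta ligands are secreted in a latent complex and are released from it outside the cell. Active ligand binds the type II receptor, encoded by Tgfbr2, which phosphorylates the type I receptor, encoded by Tgfbr1. The type I receptor then phosphorylates SMAD2 and SMAD3, which enter the nucleus with SMAD4 and regulate genes of the extracellular matrix and of signal feedback. In the glomerulus the pathway is known for its link to matrix accumulation and podocyte loss in kidney disease.

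Total part counts were 255554573, 214948912 and 233341997 in KO1 to KO3, against 189168456, 186022084 and 231312370 in WT1 to WT3. The targeted gene Cd2bp2 stood at 48.4, 47.3 and 51.0 CPM (counts scaled to library size, with TMM factors) in KO1 to KO3, against 61.0, 61.8 and 60.8 CPM in WT1 to WT3. The groups did not overlap, with a fall in Cd2bp2 of log2 fold change -0.32 (SE 0.05; edgeR quasi-likelihood test with Benjamini-Hochberg adjustment, adjusted p = 0.0297). The fall passed in 1 of the 6 fits that left out 1 library, and it did not pass with the replicate number as a block (adjusted p = 0.0893) or with the longest exonic part alone (adjusted p = 0.0546). Summed levels of 12 podocyte markers were 20969.5 to 22779 CPM in KO and 23038 to 25982 CPM in WT, with 1 marker, Nphs1, called lower in KO. Over all genes tested, 1.62% were called higher and 1.76% lower in KO. Summed levels of 13 endothelial markers were 7043 to 7440 CPM in KO and 7684 to 8152 CPM in WT, with 0 called, so the libraries also held endothelial RNA. Summed levels of 16 macrophage and myeloid markers were 460 to 511 CPM in KO and 393 to 462 CPM in WT, with 4 called higher in KO. Summed markers of the proximal tubule were 1032 to 1565 CPM in KO and 615 to 1191 CPM in WT, with 2 of 13 called higher in KO. Those of later nephron segments (loop to collecting duct) were 545, 1457 and 273 CPM in KO1 to KO3, against 347, 184 and 271 CPM in WT1 to WT3. Of these later markers, 1 of 13 was called higher in KO, and the sum in KO3 lay within the WT range. In each of these tubular sets, 0 of the 13 log2 fold changes were negative. Unadjusted edgeR p-values were under 0.05 with a higher level in KO for 10 of the later markers and 5 of the proximal ones. Over all genes tested that share was 11.5%. KO2 was the highest library for both sets. Markers of the parietal epithelium summed to 353 to 399 CPM in KO and 395 to 435 CPM in WT, with 1 of 8 called higher in KO. The single markers differed from this sum, as only 1 of the 8 log2 fold changes was negative. The KO libraries lay wholly above WT for 4 of the 8, against 14.1% of all genes, and wholly below for 1, against 14.8%. Lymphocyte markers summed to 12.4 to 23.3 CPM in KO and 6.02 to 16.9 CPM in WT, with 0 of 12 called, and 9 tested erythroid and platelet markers to 28.4 to 105 CPM in KO and 15.1 to 182 CPM in WT, with 0 called. In such bulk RNA, fewer cells of a type and less RNA per cell cannot be told apart, and a member's level cannot be assigned to 1 cell type.

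Tgfbr2, Tgfb2 and Tgfbr1 each have a short coding part that only some transcripts carry, and these parts are shown because they separate isoforms of the ligand and receptor proteins. Their use in KO and WT is described after the gene levels. The sequences are from GENCODE M21 transcripts on GRCm38, each with 15 flanking transcript bases in lower case and the alternative part in capitals. The Tgfbr2 part (chr9:116158271-116158345, minus strand) adds 25 codons to the extracellular part of the type II receptor. The Tgfb2 part (chr1:186690721-186690804, minus strand) adds 28 codons to the propeptide of the ligand precursor, and was matched to the deposited part by its length and place in the exon order. The Tgfbr1 part (chr4:47393247-47393258, plus strand) adds 4 codons to the type I receptor.
Tgfbr2: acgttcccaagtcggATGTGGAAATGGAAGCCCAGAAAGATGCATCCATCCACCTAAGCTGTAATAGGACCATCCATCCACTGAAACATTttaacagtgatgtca
Tgfb2: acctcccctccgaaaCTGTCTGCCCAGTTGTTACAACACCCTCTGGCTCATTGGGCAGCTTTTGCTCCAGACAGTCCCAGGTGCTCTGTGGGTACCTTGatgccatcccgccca
Tgfbr1: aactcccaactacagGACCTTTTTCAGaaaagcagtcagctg

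None of the 9 TGF-beta genes passed the test between KO and WT libraries. The edgeR quasi-likelihood test with Benjamini-Hochberg adjustment over 19742 genes called 0 of 9 members, against 3.37% of all genes tested, with 0 higher in KO, against 1.62%, and 0 lower, against 1.76%. DESeq2 also called 0 of 9, against 13.6% of all genes, and limma-voom 0 of 9, against 2.49%. Unadjusted p-values were under 0.05 for 2 members, Tgfb1 and Tgfb2, both with higher means in KO, against 22.6% of all genes. The 3 KO libraries lay above the 3 WT libraries for 1 member, Tgfb1, against 14.1% of all genes, and below them for 0 members, against 14.8%. The median size of the log2 fold change was 0.05 over the members and 0.17 over all genes tested. The estimates were positive for 6 members and negative for 3, with a median of 0.01 over the members and 0.01 over all genes. The members' estimates had a median SE of 0.09, against 0.13 over all genes.

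**Figure D1:**
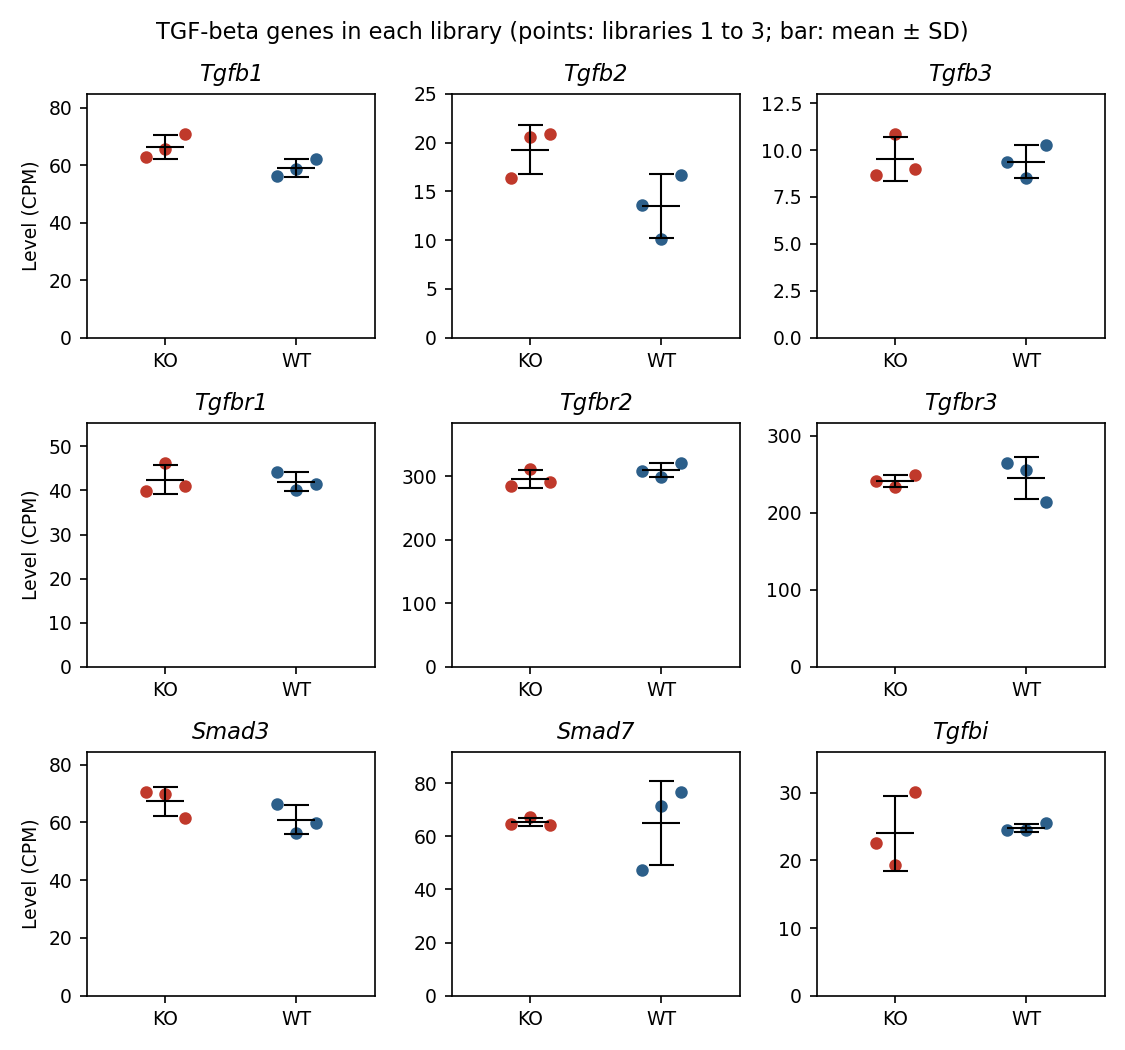
Levels of the 9 TGF-beta genes in CPM (y axis, from 0) in each KO library (left, red) and each WT library (right, blue), with the mean ± SD of 3 libraries as bars. The KO points lie above all WT points only for Tgfb1, and the WT points of Smad7 are spread from 47.1 to 76.6 CPM.

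Among the ligands, Tgfb1 encodes the form most often studied in fibrosis (ENSMUSG00000002603; chr7:26472021-26490096 on NCBIM37, plus strand, 12 parts). Its level was 62.7, 65.7 and 70.8 CPM in KO1 to KO3, against 56.1, 58.8 and 62.3 CPM in WT1 to WT3. The lowest KO library thus lay just above the highest WT library. The mean was 66.4 ± 4.08 CPM in KO and 59.1 ± 3.08 CPM in WT (SD, n = 3 each). KO over WT, the log2 fold change was 0.17 (SE 0.06, 95% interval 0.01 to 0.32, edgeR adjusted p = 0.19), which is a fold of 1.12 with an interval from 1.01 to 1.25. A higher mean in KO was seen in 11 of its 12 exonic parts, which share reads and are not replicates. The exception was the 254-base part 2, annotated in 1 of its 3 transcripts and holding 29 to 59 counts per library.

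Tgfb2 encodes a ligand that needs the co-receptor encoded by Tgfbr3 for efficient binding to the type II receptor (chr1:188447065-188529871, minus strand, 12 parts). It stood at 16.4, 20.6 and 20.9 CPM in KO1 to KO3, against 13.6, 10.2 and 16.7 CPM in WT1 to WT3. The groups overlapped by a single pair, with KO1 just below WT3. The mean was 19.3 ± 2.51 CPM in KO and 13.5 ± 3.27 CPM in WT (SD, n = 3 each). The log2 fold change of 0.52 was the largest among the members (SE 0.19, 95% interval 0.06 to 0.98, edgeR adjusted p = 0.182). This is a fold of 1.43 with an interval from 1.04 to 1.97, and DESeq2 gave an adjusted p of 0.0554. All 10 of its tested parts had a higher mean in KO, with ratios of 1.29 to 1.66, so the difference was spread along the transcript. As for Tgfb1, these parts share reads and are not replicates. Estimates ranged from 0.35 to 0.70 when 1 library was left out.

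Tgfb3 encodes the third ligand, best known for its role in palate and lung development (chr12:87397694-87419991, minus strand, 7 parts in 1 transcript). Its level was 8.68, 10.8 and 8.98 CPM in KO1 to KO3, against 9.38, 8.50 and 10.3 CPM in WT1 to WT3. The groups overlapped throughout. A log2 fold change of 0.02 was estimated (SE 0.12, 95% interval -0.28 to 0.31, edgeR adjusted p = 0.952).

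Per kilobase of exonic parts, Tgfb1 made up most of the ligand transcripts in every library. Its share was 80.5%, 77.5% and 79.9% in KO1 to KO3, against 79.7%, 83.3% and 79.0% in WT1 to WT3. The share of Tgfb2 was 11.1%, 12.9% and 12.4% in KO1 to KO3, against 10.2%, 7.61% and 11.2% in WT1 to WT3. The share of Tgfb3 was 8.41%, 9.67% and 7.66% in KO1 to KO3, against 10.1%, 9.10% and 9.86% in WT1 to WT3. The groups overlapped for each ligand. Exact two-sided permutation tests gave p = 0.6 for Tgfb1, 0.2 for Tgfb2 and 0.2 for Tgfb3, where the smallest p that 3 against 3 libraries allow is 0.1.

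**Figure D2:**
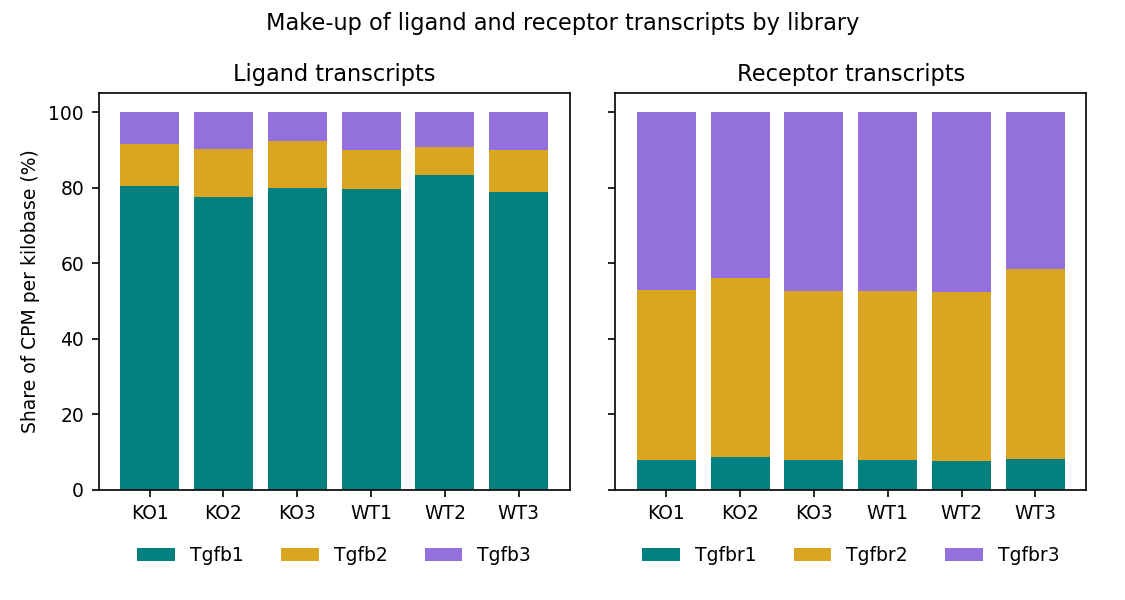
Share of each ligand transcript (left panel) and each receptor transcript (right panel) in the summed CPM per kilobase of its family (y axis, percent), for the KO libraries and then the WT libraries (x axis). Tgfb1 takes 77.5% to 83.3% of ligand transcripts. Of receptor transcripts, Tgfbr2 takes 44.8% to 50.4% and Tgfbr3 takes 41.5% to 47.6%. The shares depend on the summed part lengths and on reads counted in several parts.

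Among the receptors, Tgfbr1 encodes the type I receptor kinase (chr4:47366094-47427803, plus strand, 19 parts). Its level was 40.0, 46.2 and 41.1 CPM in KO1 to KO3, against 44.3, 40.1 and 41.5 CPM in WT1 to WT3. The means were 42.4 ± 3.32 CPM in KO and 42.0 ± 2.11 CPM in WT (SD, n = 3 each), with overlapping groups. On the log2 scale the fold change was 0.01 (SE 0.07, 95% interval -0.16 to 0.19, edgeR adjusted p = 0.927).

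Tgfbr2 encodes the type II receptor, which binds the ligand first (chr9:115993415-116084383, minus strand, 8 parts). It stood at 284, 311 and 291 CPM in KO1 to KO3, against 309, 298 and 320 CPM in WT1 to WT3. The highest KO library lay above 2 of the WT libraries. Its log2 fold change was -0.07 (SE 0.05, 95% interval -0.20 to 0.07, edgeR adjusted p = 0.524), and this was among the more precise estimates of the members. Of its 8 parts, 1 had a higher mean in KO, and ratios ran from 0.917 to 1.02.

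Tgfbr3 encodes betaglycan, the co-receptor that presents ligand to the type II receptor (chr5:107535589-107718648, minus strand, 23 parts). Its level was 241, 234 and 249 CPM in KO1 to KO3, against 264, 256 and 213 CPM in WT1 to WT3. The KO libraries lay within the range of the WT libraries, of which WT3 was the lowest. The log2 fold change was -0.02 (SE 0.09, 95% interval -0.23 to 0.19, edgeR adjusted p = 0.921). Without WT3 the estimate was -0.11.

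The make-up of the receptor transcripts overlapped between the groups for each receptor. Per kilobase, Tgfbr1 made up 7.84%, 8.71% and 7.83% of them in KO1 to KO3, against 7.94%, 7.48% and 8.09% in WT1 to WT3. Tgfbr2 made up 45.1%, 47.3% and 44.8% in KO1 to KO3, against 44.8%, 44.9% and 50.4% in WT1 to WT3. Tgfbr3 made up 47.1%, 44.0% and 47.4% in KO1 to KO3, against 47.3%, 47.6% and 41.5% in WT1 to WT3. The library that stood apart from the others was WT3, with more Tgfbr2 and less Tgfbr3. Without WT3 the difference in share, KO minus WT, was 0.872 percentage points for Tgfbr2 and -1.29 for Tgfbr3, against -0.991 and 0.703 with it. Exact two-sided permutation tests gave p = 0.6 for Tgfbr1, 0.9 for Tgfbr2 and 0.9 for Tgfbr3.

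Of the signal transducers, Smad3 encodes the receptor-activated SMAD that binds DNA (chr9:63494574-63605801, minus strand, 16 parts). It stood at 70.4, 69.8 and 61.4 CPM in KO1 to KO3, against 66.5, 56.5 and 59.8 CPM in WT1 to WT3. The groups overlapped, with KO3 between the WT libraries. The mean was 67.2 ± 5.02 CPM in KO and 60.9 ± 5.10 CPM in WT (SD, n = 3 each). The log2 fold change was 0.14 (SE 0.08, 95% interval -0.06 to 0.34, edgeR adjusted p = 0.357). All 12 of its tested parts, which share reads and are not replicates, had a higher mean in KO, with ratios of 1.00 to 1.18.

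Smad7 encodes the inhibitory SMAD that is itself induced by TGF-beta and recruits ubiquitin ligases to the type I receptor (chr18:75527183-75555589, plus strand, 14 parts). Its level was 64.6, 67.2 and 64.3 CPM in KO1 to KO3, against 47.1, 71.5 and 76.6 CPM in WT1 to WT3. The KO libraries were close together, while WT1 was far below WT2 and WT3. The mean was 65.4 ± 1.56 CPM in KO and 65.1 ± 15.7 CPM in WT (SD, n = 3 each). The log2 fold change was 0.01 (SE 0.17, 95% interval -0.40 to 0.42, edgeR adjusted p = 0.987), the widest interval among the receptors and SMADs. This value moved with each WT library left out. The estimate was -0.18 without WT1 (edgeR adjusted p = 0.206), 0.08 without WT2 and 0.14 without WT3.

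Tgfbi encodes a secreted matrix protein named for its induction by TGF-beta (chr13:56710920-56740923, plus strand, 20 parts). It stood at 22.6, 19.3 and 30.1 CPM in KO1 to KO3, against 24.5, 24.5 and 25.5 CPM in WT1 to WT3. The WT libraries were nearly level, and the KO libraries lay on both sides of them. The mean was 24.0 ± 5.54 CPM in KO and 24.8 ± 0.579 CPM in WT (SD, n = 3 each). Its estimated log2 fold change was -0.05 (SE 0.16, 95% interval -0.43 to 0.33, edgeR adjusted p = 0.883). Without KO3 the estimate was -0.25, and without KO2 it was 0.07, so single KO libraries moved it in either direction.

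**Figure D3:**
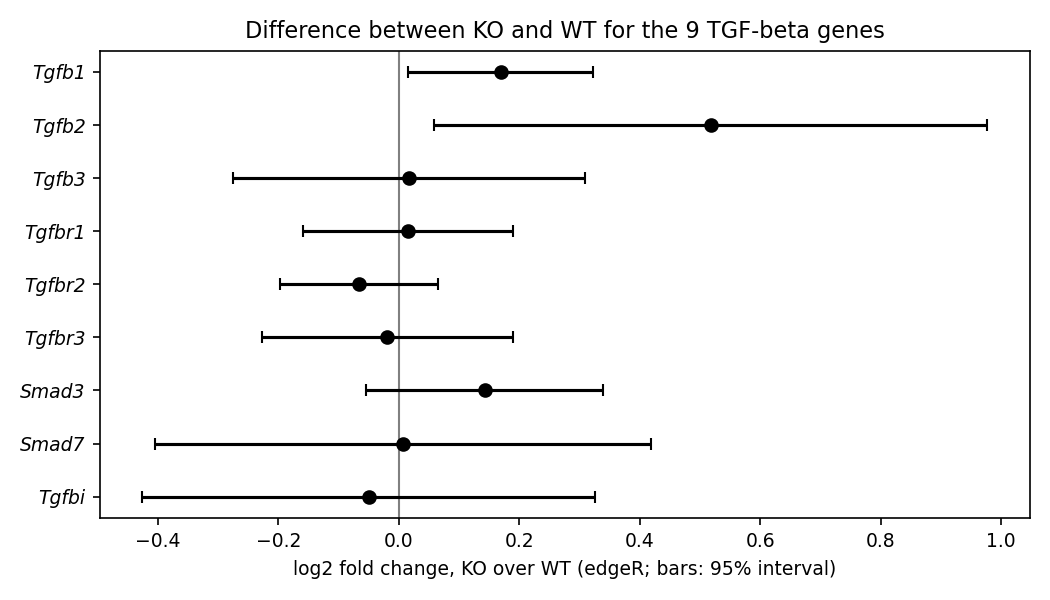
Log2 fold change of each TGF-beta gene, KO over WT (x axis), with its 95% interval from edgeR (bars); genes run down the page by role. The intervals of Tgfb1 and Tgfb2 lie above 0 before adjustment, while those of the other members include 0.

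The order of the members by level was similar in the KO and WT libraries. Per kilobase of exonic parts, the highest were Tgfbr3, at 36.8 CPM per kilobase in KO and 37.3 in WT, and Tgfbr2, at 36.5 in KO and 38.2 in WT. Tgfb1 followed at 26.0 CPM per kilobase in KO and 23.1 in WT. Smad7 had 14.5 CPM per kilobase in KO and 14.4 in WT, and Smad3 had 12.1 in KO and 10.99 in WT. Lower still was Tgfbi, at 8.08 CPM per kilobase in KO and 8.37 in WT, next to Tgfbr1, at 6.49 in KO and 6.42 in WT. Tgfb2 was at 3.99 CPM per kilobase in KO and 2.78 in WT, and Tgfb3 was at 2.81 in KO and 2.77 in WT. Neighbours whose library ranges overlapped were Tgfbr2 and Tgfbr3 in both groups, Tgfbi and Tgfbr1 in KO, Smad7 and Smad3 in WT, and Tgfb2 and Tgfb3 in WT. Among all genes tested, Tgfbr2 stood at percentile 92.1 of level per kilobase and Tgfb3 at percentile 46.0.

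As CD2BP2 belongs to the spliceosome, the use of single exonic parts within each member was compared as well. Of the 131 member parts, 116 passed the filter on low counts, and diffSpliceDGE in edgeR called 0 of them, against 0.0627% of 236061 parts. Unadjusted p-values were under 0.05 for 0 member parts, against 1.16% of all parts. That share of all parts is below what a threshold of 0.05 gives without any difference. The part test was therefore conservative, and its lack of calls says little about small differences in use. Relative use, which is the log2 fold change of a part less that of its gene, ranged from -0.48 to 0.26 over the members, with a median size of 0.05. The share of the gene's counts lay wholly above WT in KO for 5 parts, which is 4.31% of the members' tested parts, against 5.48% of all parts. It lay wholly below for 8 parts, or 6.90%, against 5.69% of all parts. Every base was covered in all 6 libraries for 106 of the 131 parts. The 15 parts that did not pass the filter held at most 16 counts in any library. Among them, Tgfbr1 parts 3 and 4 had 0 counts in every library.

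In the main part test, the smallest p of the 9 genes was that of Tgfb1 part 2 (chr7:26473946-26474199 on NCBIM37), with a relative use of -0.46 (diffSpliceDGE in edgeR, adjusted p of 1.00). It held 56, 33 and 45 counts in KO1 to KO3, against 29, 59 and 45 counts in WT1 to WT3, so the groups overlapped. Tgfbr3 part 3 (chr5:107547216-107547437), annotated in 1 of 4 transcripts, had the lowest relative use of -0.48. It held 25, 12 and 24 counts in KO1 to KO3, against 24, 22 and 24 counts in WT1 to WT3, which was under 0.05% of the gene's counts in each library. The other members had their smallest p at Tgfb2 part 12, Tgfb3 part 4, Tgfbr1 part 9, Tgfbr2 part 7, Smad3 part 5, Smad7 part 2 and Tgfbi part 3, with relative uses from -0.31 to 0.19.

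**Figure D4:**
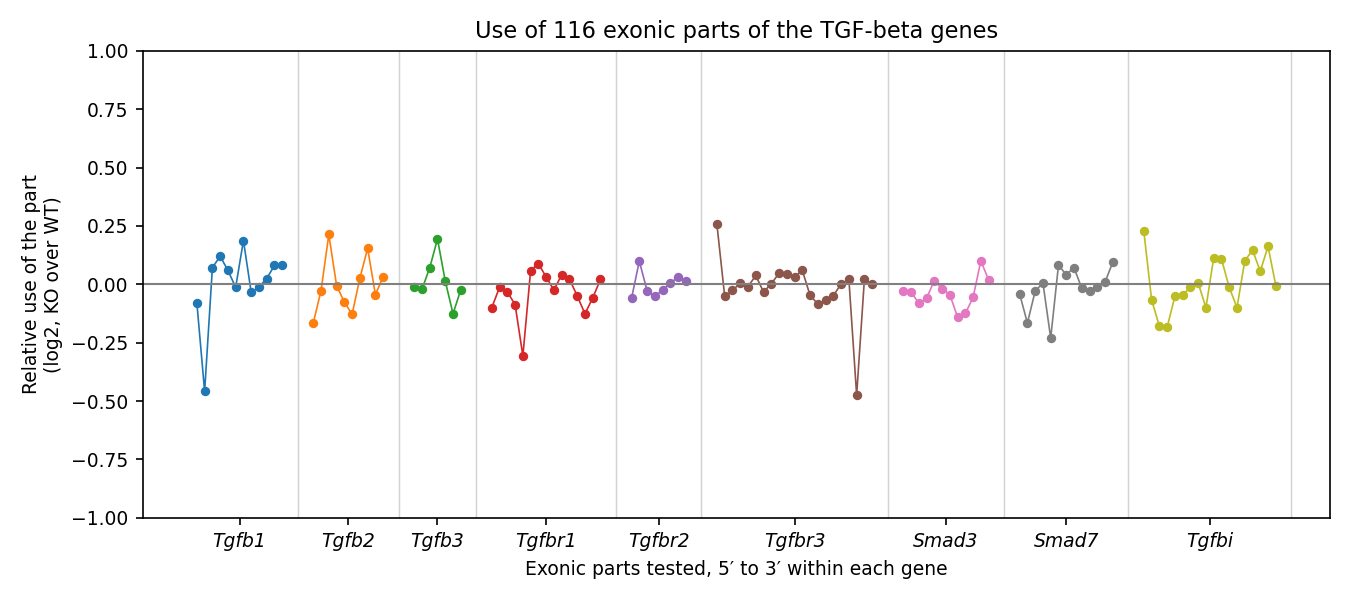
Relative use of each tested exonic part of the 9 TGF-beta genes (y axis, log2, KO over WT, relative to the gene), with parts in 5′ to 3′ order within each gene (x axis). The 116 points lie between -0.48 and 0.26, and none passed the test.

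The alternative coding parts printed above were found in both groups. The 75-base part of Tgfbr2 held 769, 716 and 837 counts in KO1 to KO3, against 644, 586 and 632 counts in WT1 to WT3. Its counts were 25.3%, 24.9% and 27.2% of the mean of its neighbouring parts in KO1 to KO3, against 26.8%, 24.7% and 19.3% in WT1 to WT3. These percentages are not corrected for part length, so they describe the libraries side by side and are no estimate of the isoform share. The groups overlapped, and the relative use was 0.10.

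The 84-base part of Tgfb2 was rare in every library. It held 15, 15 and 21 counts in KO1 to KO3, against 10, 8 and 7 counts in WT1 to WT3. Relative to its neighbours this was 4.86%, 4.36% and 5.43% in KO1 to KO3, against 5.68%, 5.41% and 2.36% in WT1 to WT3. KO libraries had more counts of this part and of the whole gene, before any scaling to library size. In CPM the whole gene overlapped between the groups, as given above. The relative use of the part was 0.21 with overlapping percentages.

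The 12-base part of Tgfbr1 held 55, 55 and 60 counts in KO1 to KO3, against 51, 52 and 70 counts in WT1 to WT3. Relative to the adjoining part 10 this was 12.7%, 14.8% and 14.9% in KO1 to KO3, against 17.8%, 17.0% and 19.8% in WT1 to WT3. The percentages did not overlap between the groups and were lower in KO. The relative use was -0.31 and did not pass (edgeR diffSpliceDGE adjusted p of 1.00), and as a share of the whole gene's counts the part held 0.530% to 0.608% in KO and 0.620% to 0.740% in WT. Such shares of the gene lay wholly lower in KO for 5.69% of all parts.

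Other genes of the pathway were described in 6 lists with 112 genes, all of which passed the filter on low counts. Of these, 5 were called, or 4.46%, against 3.37% of all genes tested, with 3 higher in KO, against 1.62%, and 2 lower, against 1.76%. The lists were chosen with earlier results of these data known, and 6 of the genes (Eng, Dab2, Nrp1, Ctdsp2, Zeb1 and Zeb2) are counted under an identifier joined with an overlapping one.

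Among 15 genes of TGF-beta latency and activation, 0 rose, 0 fell and 15 did not pass, with a median log2 fold change of 0.06. The smallest p was that of Thbs1, which encodes thrombospondin 1, an activator of latent TGF-beta. Its level was 241, 256 and 227 CPM in KO1 to KO3, against 207, 177 and 179 CPM in WT1 to WT3. The groups did not overlap, and the log2 fold change was 0.36 (SE 0.08, edgeR adjusted p = 0.064; DESeq2 adjusted p = 0.00381). Next was Bmp1, a protease gene whose product acts on procollagens and on latent TGF-beta binding proteins, with a log2 fold change of 0.22 (edgeR adjusted p = 0.191).

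Among 11 co-receptors and receptor regulators, 0 rose and 0 fell, and the median log2 fold change was 0.01. The smallest p-values were those of Bambi, a pseudoreceptor gene, with -0.26 (edgeR adjusted p = 0.137), and Fkbp1a, whose product holds the type I receptor inactive, with -0.32 (edgeR adjusted p = 0.229). For Fkbp1a the groups overlapped, and the sign was reversed with the longest exonic part alone (0.90, edgeR adjusted p = 0.305).

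Among 22 other SMADs and SMAD regulators, 0 rose and 0 fell, and 14 of the 22 estimates were negative, with a median of -0.07. The 3 KO libraries lay below the 3 WT libraries for 9 of them, against 14.8% of all genes, and above them for 0, against 14.1%. Smad1, which encodes a SMAD activated by BMP receptors, had 24.1, 23.8 and 24.8 CPM in KO1 to KO3, against 28.9, 27.8 and 28.3 CPM in WT1 to WT3. Its log2 fold change was -0.23 (SE 0.05, edgeR adjusted p = 0.0694; DESeq2 adjusted p = 0.00276). Smurf1, which encodes a ubiquitin ligase that SMAD7 recruits, had -0.14 (edgeR adjusted p = 0.142).

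Among 8 non-SMAD kinases and adaptors downstream of the receptors, 0 rose and 0 fell, and the median log2 fold change was -0.07. The KO libraries lay wholly below WT for 3, against 14.8% of all genes, and wholly above for 0, against 14.1%. Tab2, an adaptor of the kinase TAK1, had -0.20 (edgeR adjusted p = 0.0997; DESeq2 adjusted p = 0.0285).

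Among 35 TGF-beta responsive genes, 2 rose, 2 fell and 31 did not pass, with a median log2 fold change of -0.02. Over all genes tested, 1.62% rose and 1.76% fell. The KO libraries lay wholly above WT for 3 of the 35 genes, against 14.1% of all genes, and wholly below for 6, against 14.8%. Col1a2, a chain of type I collagen, had 2078, 2137 and 2422 CPM in KO1 to KO3, against 542, 659 and 484 CPM in WT1 to WT3. This was a log2 fold change of 1.98 (SE 0.13, edgeR adjusted p = 0.00554). No single one of its 75 parts held more than 8.38% of its counts in a library. Its longest part, of 2115 bases, held 66, 42 and 91 counts in KO1 to KO3, against 8, 4 and 6 counts in WT1 to WT3. This was at most 0.0157% of the gene's counts, so coverage along the gene was uneven. Col1a1, the other chain of type I collagen, stood far below Col1a2, at a mean of 5.49 CPM in KO and 4.83 CPM in WT. Col1a1 did not pass, with a log2 fold change of 0.18 (SE 0.29, edgeR adjusted p = 0.752). The source of this gap in level was not tested. Timp1, an inhibitor of matrix metalloproteinases, had 2.37, 2.41 and 2.58 CPM in KO1 to KO3, against 0.721, 0.744 and 0.685 CPM in WT1 to WT3. Its log2 fold change was 1.77 (SE 0.13, edgeR adjusted p = 0.00597), and both Col1a2 and Timp1 passed in 6 of 6 fits that left out 1 library.

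The 2 responsive genes that fell were Postn and Tsc22d1. Postn, which encodes the matrix protein periostin, had 7.27, 6.71 and 6.01 CPM in KO1 to KO3, against 16.2, 17.4 and 12.4 CPM in WT1 to WT3. Its log2 fold change was -1.20 (SE 0.15, edgeR adjusted p = 0.0226). Tsc22d1, a TGF-beta-stimulated leucine zipper gene, had 418, 440.6 and 357 CPM in KO1 to KO3, against 771, 647 and 667 CPM in WT1 to WT3. Its log2 fold change was -0.78 (SE 0.10, edgeR adjusted p = 0.026). None of the 4 genes overlapped between KO and WT. With a library left out, Postn passed in 2 of 6 fits, with adjusted p up to 0.0943, and Tsc22d1 in 1 of 6. Tsc22d1 did not pass with the replicate number as a block (adjusted p = 0.0613). With the longest part alone neither passed, and the estimates were -0.23 for Postn and 0.22 for Tsc22d1, from parts with at most 2.91% and 0.631% of the gene's counts. The macrophage and myeloid markers given above had a median log2 fold change of 0.81 and the mesangial and smooth muscle markers one of -0.14. The median was 1.64 for the loop to collecting duct, 0.85 for lymphocytes, 0.71 for the parietal epithelium, 0.57 for the proximal tubule, -0.13 for endothelium, -0.15 for podocytes and -0.29 for erythroid cells and platelets. The part of any of these markers in the differences above was not tested. Summed mesangial and smooth muscle markers ranged from 2982 to 3631 CPM in KO and from 3158 to 3484 CPM in WT, with 0 of 12 called.

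Among 21 genes of the BMP and activin branch, 1 rose, 0 fell and 20 did not pass, with a median log2 fold change of -0.09. The KO libraries lay wholly above WT for 2 of them, against 14.1% of all genes, and wholly below for 6, against 14.8%. Chrd, which encodes the BMP antagonist chordin, had 2.92, 3.14 and 2.61 CPM in KO1 to KO3, against 1.87, 1.79 and 1.65 CPM in WT1 to WT3. This was a log2 fold change of 0.71 (SE 0.13, edgeR adjusted p = 0.0479). It passed in 0 of 6 fits that left out 1 library, where its adjusted p was 0.0671 to 0.186, and its adjusted p was 0.107 with the replicate number as a block.

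**Figure D5:**
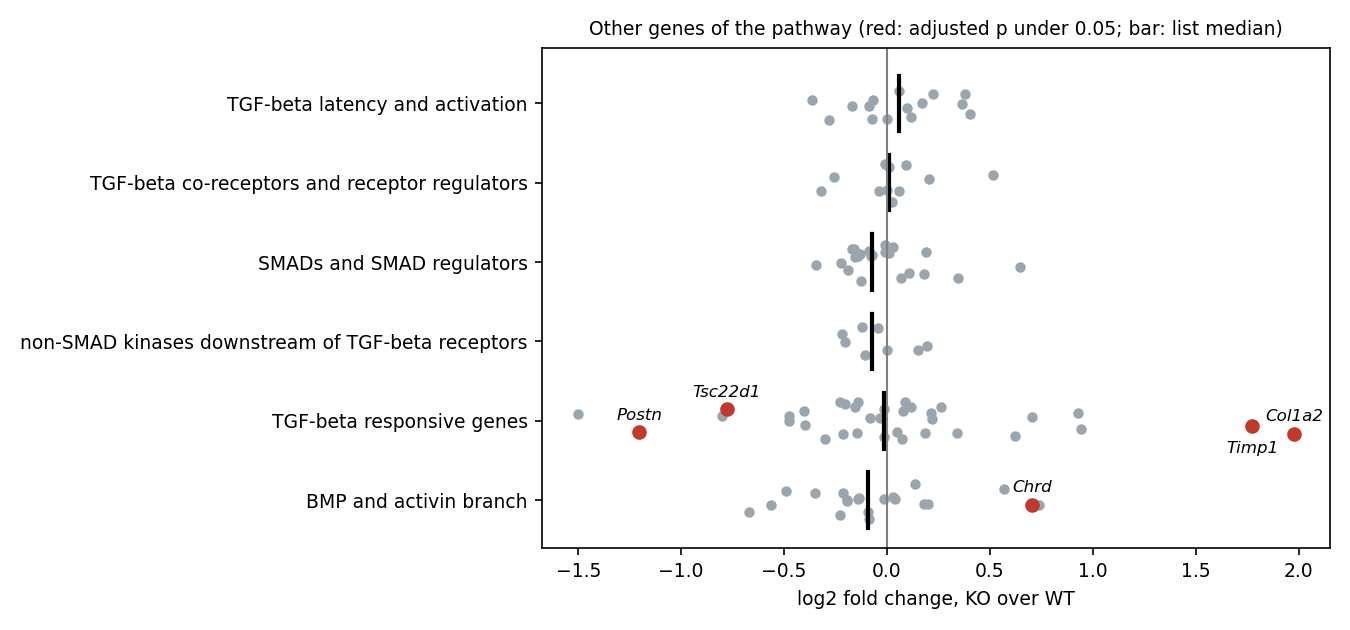
Log2 fold change, KO over WT (x axis), of each gene in 6 lists of the pathway (y axis), with genes past the edgeR test in red and named and the list median as a black bar. The medians lie between -0.09 and 0.06, and the called genes are Col1a2, Timp1 and Chrd above 0 and Postn and Tsc22d1 below 0.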

How the data were processed

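The authors sequenced polyadenylated RNA of 3 KO and 3 WT libraries and deposited 1 table of raw read counts per exonic part for each library. Per the file headers the annotation is Ensembl 67 on the mouse build NCBIM37, whereas GRCh37, which is a human build, and TopHat 1.4.1 are listed in the submitters' processing notes. Neither the read counter nor its strand mode is given in the sources used here. The deposited covered bases and covered fraction of each part were used only to count fully covered parts. Coordinates are those of the files, except for the printed sequences. Symbols were matched by Ensembl identifier for 31300 of 35981 single identifiers.

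Part counts were summed per gene, and a read over several parts therefore entered more than once. Library totals are given above, and the members' SEs had a median of 0.09 on the log2 scale. The gene test was run in edgeR 4.0.16 under R 4.3.3 (TMM, filterByExpr defaults, quasi-likelihood test, no covariates, all 6 libraries, Benjamini-Hochberg adjusted p under 0.05). Parts were tested with diffSpliceDGE in genes with at least 2 tested parts. Levels are CPM, and levels per kilobase divide by the summed length of a gene's parts. Shares were compared with exact permutation tests in SciPy 1.17.1. The gene and part tests were checked on simulated counts. The alternatives were RLE normalization, 2 other filters, a replicate block, DESeq2 1.42.0, limma-voom (limma 3.58.1), parts free of overlap, the longest part alone, leaving out each library, and for parts limma-voom diffSplice and the gene total as offset.

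The members and lists were chosen with earlier results of these data known. The text names all members, Cd2bp2, up to 6 genes past the test in each pathway list, or else the 2 with the smallest p, and the part with the smallest p of each member. A gene that this rule names among the non-SMAD kinases is not reported here. The 3 alternative coding parts, Tgfbr3 part 3, Tgfbr1 parts 3 and 4, and Col1a1 were chosen after their values were seen. Genes with a pattern like that of a member were to be named only for members past the test, and there were none.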

Additional observations from a re-analysis of the deposited data

How the results depend on the processing

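The count of members called was 0 in all 14 alternatives, as was the count of member parts in all 10, so the members' result rests on adjusted p-values that stayed above 0.05. With the gene total as offset, 3 of 116 member parts had an unadjusted p under 0.05 (edgeR quasi-likelihood test). They were Tgfb1 parts 1 and 4 and Tgfbr3 part 8, with a smallest adjusted p of 0.65. The setting with parts free of overlap left the members' own counts unchanged, since 0 of their parts overlapped another gene. Genes called numbered 666, with 491 to 720 under RLE normalization, both filters, limma-voom and parts free of overlap, but 2532 with DESeq2, 424 with the longest part alone and 31 to 254 with 1 library left out. With the replicate number as a block 82 genes were called. Same-numbered KO and WT libraries had correlated deviations of 0.107, -0.0601 and 0.158, and KO2 did not correlate best with its own number, so the numbers were not taken as pairs. The block called 0 members and 0 member parts. With it Chrd, Cd2bp2 and Tsc22d1 also lost their call, as given above.

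The log2 fold changes of Tgfb1 (0.12 to 0.21), Tgfb2 (0.35 to 0.70), Smad3 (0.09 to 0.21) and Tgfbr2 (-0.11 to -0.04) kept their sign with each library left out. Those of Tgfb3 (-0.0991 to 0.0871), Tgfbr1 (-0.0604 to 0.0541), Tgfbr3 (-0.109 to 0.0395), Smad7 (-0.18 to 0.14) and Tgfbi (-0.251 to 0.0749) did not. With the longest part alone Tgfbr3 had 0.0017 and Smad7 -0.0182. Differences in share, in percentage points, were -2.24 to -0.0689 for Tgfb1, 1.45 to 3.24 for Tgfb2, -1.64 to -0.633 for Tgfb3, -0.00399 to 0.437 for Tgfbr1, -1.97 to 0.872 for Tgfbr2 and -1.29 to 1.79 for Tgfbr3.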
